A study of Mus musculus with 144 samples.

Results

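Microglial lineage transcription factors were followed in single retinal cells through 9 genes, taken by symbol from the 55364 genes of the deposited expression table: Spi1, Irf8, Mef2a, Mef2c, Runx1, Sall1, Cebpa, Cebpb and Bhlhe41. Each of the 9 symbols matched 1 row. The cells were sorted from the retina of mice of the strain label Iba1-EGFP, in which cells expressing the myeloid gene Iba1 carry a green fluorescent protein, and all were labelled microglia. The 48 cells labelled PBS came from vehicle-treated mice of 10 to 14 weeks, the 48 labelled Low from mice of 14 weeks given ripasudil at 1 mg/kg, and the 48 labelled High from mice of 12 weeks given ripasudil at 10 mg/kg. The series title places the work in optic nerve injury, but no label says whether these eyes were injured. Each group filled 16 wells of its own on each of 3 plates, so that dose, age and block of wells cannot be told apart.

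Microglia arise from yolk sac progenitors and depend for their formation on PU.1, the ETS-family protein encoded by Spi1, and on IRF8, which binds DNA together with PU.1. RUNX1 acts earlier, in blood-forming progenitors, and accompanies PU.1 at many myeloid enhancers. MEF2A and MEF2C, MADS-box proteins, and SALL1, a zinc finger protein, are associated with the gene programme that distinguishes microglia from other macrophages, whereas C/EBPα and C/EBPβ (Cebpa, Cebpb) drive myeloid differentiation and inflammatory genes, and BHLHE41 is an E-box-binding repressor active in tissue macrophages and in the circadian clock.

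No animal was named in the labels, so each group was 1 sample, no difference has a replicate check and no test was made. SDs are over cells, and intervals are exact Clopper-Pearson 95% intervals that cover counting error only. Expression is in FPKM, the reads of a gene per length of its exons and per total of the cell. A gene was called found in a cell from an FPKM of 1 upwards, and the 140 of 144 cells in which 1000 genes or more were found were kept: 46 PBS, 47 Low and 47 High. Reads assigned per kept cell were estimated at 30204 to 4668732. The median number of genes found per cell, the detected genes, was 3143 in PBS, 2418 in Low and 2264 in High cells. All 140 kept cells held at least 3 of 12 microglial markers, and each of the 12 was found in at least 53.2% of the cells of each group. Summed microglial marker FPKM ranged from 75.6 to 79938 over the cells, with medians of 17844 in PBS, 19618 in Low and 19853 in High. Cells with 3 or more of 10 rod photoreceptor markers numbered 5 of 46 PBS, 6 of 47 Low and 10 of 47 High, and cells with 3 or more of 8 neutrophil markers numbered 4, 6 and 5. Summed rod marker FPKM had medians of 0.658, 0.325 and 0.880 and maxima of 291, 4660 and 15420 in PBS, Low and High, with Nr2e3, Pde6a and Rp1 at 0 in PBS and Low. Summed neutrophil marker FPKM had a median of 0 in each group and maxima of 82559, 126780 and 78190, with Camp and Ltf at 0 throughout. Border macrophages also express Iba1, and 4, 4 and 3 cells held 3 or more of their 7 markers. Values without the rod-marker and the neutrophil- or monocyte-marker cells stand below beside the shifted factors, and beside shifted genes of the lists where they end the call.

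The start regions of the genes are shown first because several of them carry short motifs that these factors, or the STAT proteins downstream of cytokine receptors, are known to bind. RefSeq promoter windows (300 bases, from 250 bases before to 50 after a start site, GRCm38.p6) were matched by symbol for 8 of the 9 genes, 14 windows in all, with Spi1 unmatched. Motifs searched on both strands were GAGGAAGT (PU.1), GAAANNGAAA (IRF), TTCNNNGAA (GAS, the STAT site), CTANNNNTAG (MEF2), TGTGGT (RUNX), TTGCNNAA (C/EBP) and CACGTG (E-box). None of the matches overlapped another. Capitals in the windows below mark every match. A match is a description of letters and not a bound site.
Irf8: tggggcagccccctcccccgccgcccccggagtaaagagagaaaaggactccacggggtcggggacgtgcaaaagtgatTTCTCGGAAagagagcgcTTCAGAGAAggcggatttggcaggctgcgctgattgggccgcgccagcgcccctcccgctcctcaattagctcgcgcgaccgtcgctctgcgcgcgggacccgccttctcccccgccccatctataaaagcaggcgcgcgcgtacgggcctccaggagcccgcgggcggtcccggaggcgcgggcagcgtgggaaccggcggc
Mef2c: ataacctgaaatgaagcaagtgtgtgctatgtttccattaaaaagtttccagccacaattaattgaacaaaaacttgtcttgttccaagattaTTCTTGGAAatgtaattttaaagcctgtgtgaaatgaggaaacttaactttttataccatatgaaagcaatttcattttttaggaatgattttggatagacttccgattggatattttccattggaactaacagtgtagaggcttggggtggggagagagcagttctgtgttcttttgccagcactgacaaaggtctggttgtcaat
Mef2a: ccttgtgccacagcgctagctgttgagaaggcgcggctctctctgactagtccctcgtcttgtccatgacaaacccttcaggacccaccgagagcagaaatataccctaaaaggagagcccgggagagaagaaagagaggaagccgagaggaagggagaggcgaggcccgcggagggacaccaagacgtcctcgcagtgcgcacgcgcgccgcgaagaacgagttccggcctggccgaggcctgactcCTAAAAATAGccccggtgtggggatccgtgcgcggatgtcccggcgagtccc
Runx1: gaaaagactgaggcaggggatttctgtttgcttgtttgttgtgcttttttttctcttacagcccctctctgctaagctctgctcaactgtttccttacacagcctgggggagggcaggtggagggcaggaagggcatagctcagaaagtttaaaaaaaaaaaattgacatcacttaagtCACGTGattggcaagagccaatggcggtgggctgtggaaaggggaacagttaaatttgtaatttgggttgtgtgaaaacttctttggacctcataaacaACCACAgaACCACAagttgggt
Bhlhe41: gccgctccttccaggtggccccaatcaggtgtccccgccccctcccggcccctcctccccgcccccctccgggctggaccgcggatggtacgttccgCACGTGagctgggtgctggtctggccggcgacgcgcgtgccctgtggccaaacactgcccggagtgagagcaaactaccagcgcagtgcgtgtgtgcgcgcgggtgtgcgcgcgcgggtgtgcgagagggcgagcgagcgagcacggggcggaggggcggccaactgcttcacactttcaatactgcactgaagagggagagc
The first Irf8 window (chr8:120736108-120736407, plus strand) held 2 GAS motifs, starting 171 and 153 bases before its start site. The first Mef2c window (chr13:83503784-83504083, plus strand) held 1 GAS motif, starting 157 bases before its start site. GAS motifs were found in 8.3% of all 32851 windows. The Mef2a window (chr7:67372809-67373108, minus strand) held a MEF2 motif across its start site, which was found in 3.69% of windows. The first Runx1 window (chr16:92826025-92826324, minus strand) held 2 RUNX motifs after its start site and an E-box. The Bhlhe41 window (chr6:145865371-145865670, minus strand) held 1 E-box. RUNX motifs were in 16.8% and E-boxes in 7.15% of all windows. Of the 14 windows, MEF2 and RUNX motifs each stood in 1, and GAS motifs and E-boxes each in 2. The later windows of Irf8, Mef2c and Runx1 held no match. Windows of Mef2a, Runx1 and Bhlhe41 each held a motif that the gene's own protein is known to bind. Counts this small cannot be set apart from the shares over all windows. The PU.1, IRF and C/EBP motifs matched in none of the 14 windows, against 3.2%, 3.44% and 10.8% of all windows. Base composition ranged from 35.7% G and C with 1 CpG dinucleotide in the first Mef2c window to 80.7% with 50 in the Cebpb window. The first Irf8 window was at 70.0% and 38. Medians over all windows were 52.7% and 7.

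Levels of the 9 genes spanned a wide range per gene length. On the log2(FPKM + 1) scale, the mean level over 140 cells was 4.68 ± 3.45 (SD) for Spi1, 3.88 ± 3.08 for Irf8 and 2.09 ± 2.40 for Mef2c. Bhlhe41 followed at 1.43 ± 1.84, Cebpa at 1.25 ± 2.03, Sall1 at 1.17 ± 2.13, Mef2a at 1.159 ± 1.87, Runx1 at 0.83 ± 1.45 and Cebpb at 0.75 ± 1.61. Over the 9 sets of cells that share a group and a plate, Irf8 lay above Mef2c in 9 of 9, and Spi1 above Irf8 in 7 of 9. The step from Spi1 to Irf8, 0.80, was smaller than the SD of either over those sets (0.96 and 0.83), while the step from Irf8 to Mef2c, 1.79, was larger (0.83 and 0.35). From Bhlhe41 downwards each step to the next gene, 0.02 to 0.33, was smaller than the SD of either neighbour over those 9 sets, and neighbours there do not differ beyond their spread. Transcript models bear on this order: FPKM divides by the length of all exons joined, which was 15715 bases for Mef2c and 14681 for Mef2a against 2695 for Spi1 and 1504 for Cebpb.

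**Figure D1:**
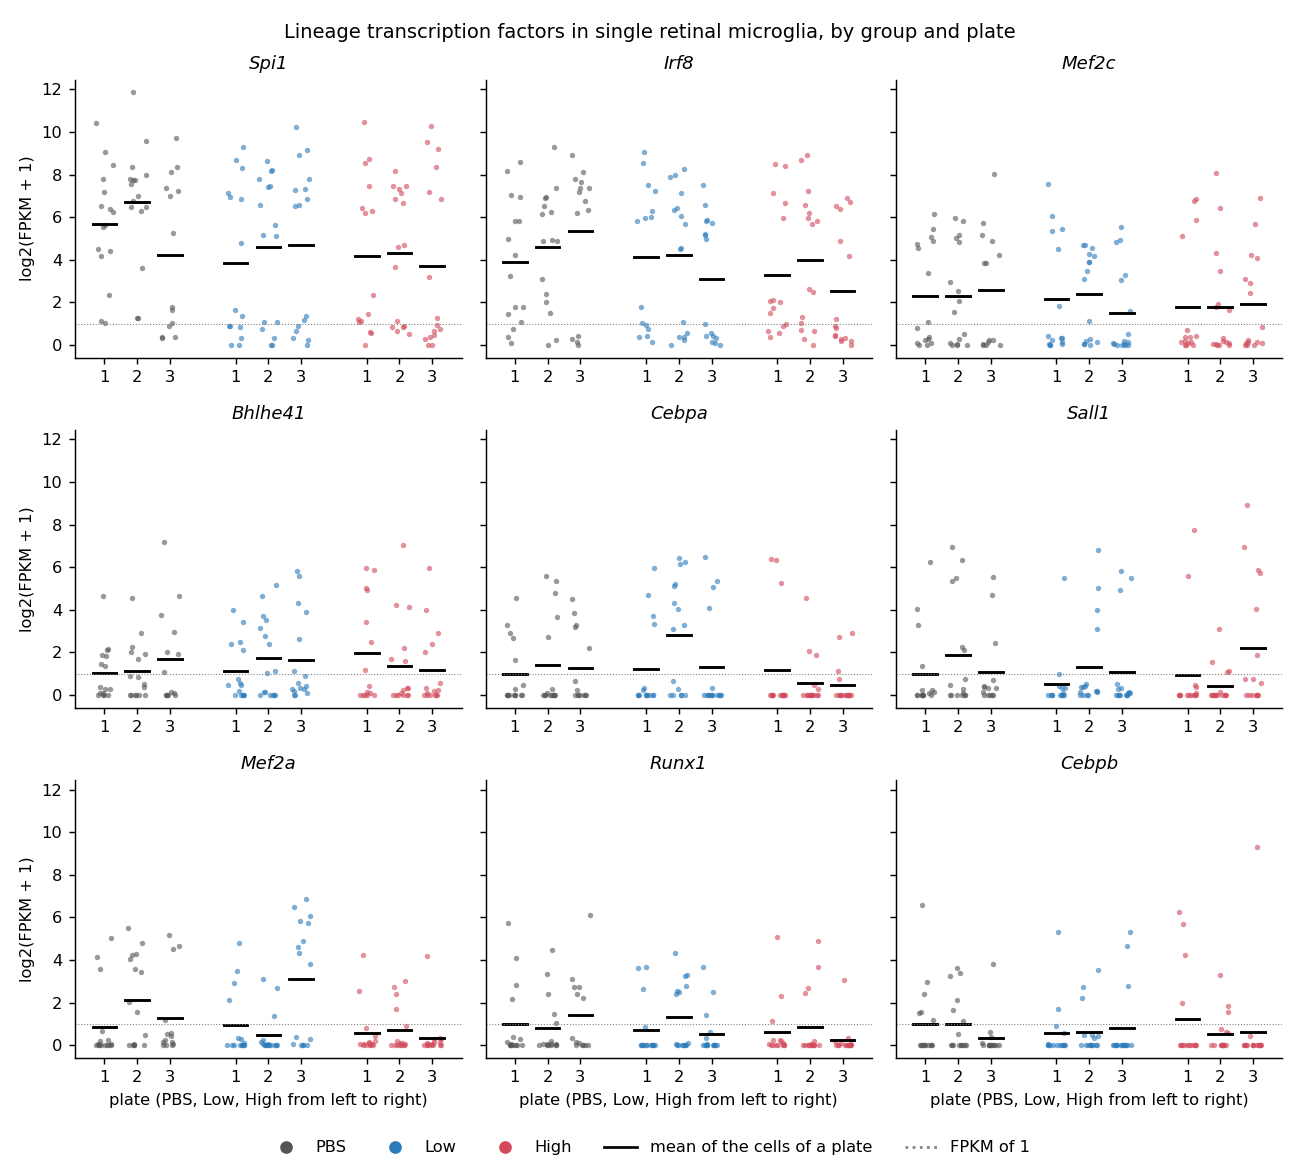
Level of each factor in each cell as log2(FPKM + 1), 1 panel a gene, with cells placed by group (PBS grey, Low blue, High red) and plate and a bar at the mean of each plate. Spi1 and Irf8 have a group of cells at or near 0 and a broad upper group, with some cells between, and the lower 6 genes are at or near 0 in most cells.

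The pioneer factor gene Spi1 (ENSMUSG00000002111, chr2:91082390-91115756, plus strand, GRCm38) was found in 105 of 140 cells, 75% (interval 67.0 to 81.9%). In PBS cells its FPKM ran from 0.26 through a median of 87.9 to 3711, in Low cells from 0 through 34.3 to 1194, and in High cells from 0 through 8.04 to 1405. The groups overlapped over most of their range, and what differed was the lower part: 42 of 46 PBS cells (91.3%, 79.2 to 97.6%), 32 of 47 Low (68.1%, 52.9 to 80.9%) and 31 of 47 High cells (66.0%, 50.7 to 79.1%) reached an FPKM of 1. Among the cells that reached it, the median FPKM was 99.0 in PBS, 131 in Low and 113 in High. On plates 1 and 2 all 32 PBS cells reached an FPKM of 1, and on plate 3 10 of 14 did.

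Irf8 (ENSMUSG00000041515, chr8:120736358-120756694, plus strand), encoding the partner of PU.1, was found in 96 of 140 cells, 68.6% (60.2 to 76.1%). Its FPKM had a median of 42.7 and a maximum of 622 in PBS cells, 30.5 and 536 in Low, and 3.05 and 484 in High, with a minimum of 0 in each group. The share of cells in which Irf8 was found was 80.4% (66.1 to 90.6%) in PBS, 61.7% (46.4 to 75.5%) in Low and 63.8% (48.5 to 77.3%) in High. Plate 3 held both extremes: its PBS cells had the highest mean log2 level of any set (5.33, found in 10 of 14), and its High cells the lowest (2.53, found in 7 of 16).

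Read numbers behind these values fell into a low and a high class. Of 132 cells with any Spi1 read, 48 had 5 reads or fewer, 75 had 100 or more and 9 lay between. Of 134 cells with any Irf8 read, the numbers were 34, 71 and 29. Mef2c was similarly divided, with 50 low, 53 high and 13 between among 116 cells, whereas Bhlhe41 was not, with 40 of 96 cells between 5 and 100 reads. For the long genes, cells with any read thus far outnumbered cells in which the gene was found: Mef2c had a read in 82.9% of cells and was found in 45.7%.

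**Figure D2:**
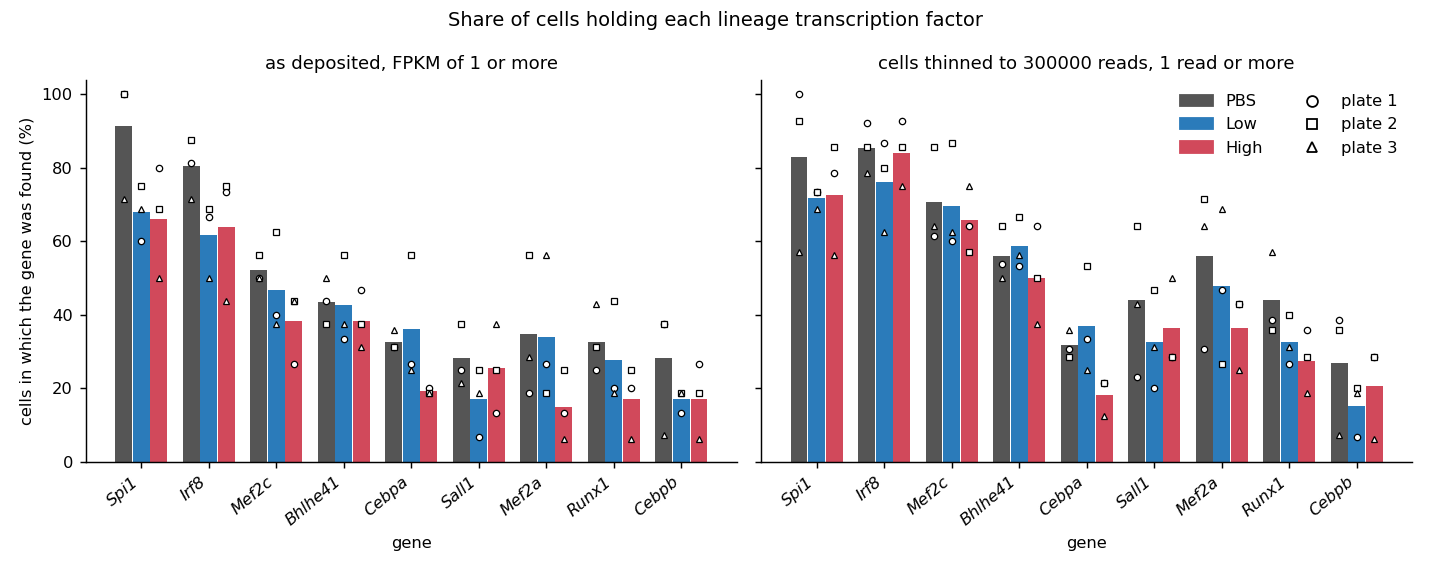
Share of kept cells in which each factor was found, as bars for PBS, Low and High over all plates and symbols for each plate. Left, an FPKM of 1 or more as deposited; right, at least 1 read after each cell was thinned to 300000 reads, where the Irf8 bars are 85.4, 76.1 and 84.1%.

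The shares were taken again at equal depth. With each cell thinned at random to 300000 reads and 9 shallower cells left out (5 PBS, 1 Low, 3 High), at least 1 Spi1 read remained in 82.9% of PBS, 71.7% of Low and 72.7% of High cells. The Spi1 share in Low minus PBS was -23.2 points as deposited and -11.2 points thinned, and in High minus PBS -25.3 and -10.2 points. For Irf8 it was -18.7 and -9.28 points in Low, and -16.6 and -1.27 points in High. The 2 measures use different thresholds (an FPKM against 1 read), and detected genes still differ at equal reads.

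Among the MEF2 genes, Mef2c (ENSMUSG00000005583, chr13:83504034-83667080, plus strand) was found in 24 of 46 PBS (52.2%, 36.9 to 67.1%), 22 of 47 Low (46.8%, 32.1 to 61.9%) and 18 of 47 High cells (38.3%, 24.5 to 53.6%). Its maxima were 260, 188 and 271 FPKM, its medians 1.49, 0.331 and 0.253, and its means 19.2, 13.6 and 19.8. Mef2a (ENSMUSG00000030557, chr7:67231163-67372858, minus strand) was found in 34.8% (21.4 to 50.2%) of PBS, 34.0% (20.9 to 49.3%) of Low and 14.9% (6.2 to 28.3%) of High cells. Its plates disagreed: in Low, 9 of 16 cells of plate 3 held Mef2a against 3 of 16 on plate 2, and in PBS 4 of 14 on plate 3 against 9 of 16 on plate 2. The highest Mef2a FPKM in any cell was 114 in Low, 44.0 in PBS and 18.1 in High.

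The microglia-restricted zinc finger gene Sall1 (ENSMUSG00000031665, chr8:89027235-89044162, minus strand) was found in 13 of 46 PBS (28.3%, 16 to 43.5%), 8 of 47 Low (17.0%, 7.65 to 30.8%) and 12 of 47 High cells (25.5%, 13.9 to 40.3%). In High, 6 of 16 cells of plate 3 held it and 1 cell reached 484 FPKM, and the 3 highest cells gave 81.3% of the summed FPKM. Mean FPKM was accordingly 21.5 in High against 10.3 in PBS, while the mean log2 level was 1.21 in High and 1.32 in PBS.

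Runx1 (ENSMUSG00000022952, chr16:92601466-92826149, minus strand) was found in 32.6% (19.5 to 48.0%) of PBS, 27.7% (15.6 to 42.6%) of Low and 17.0% (7.65 to 30.8%) of High cells, with maxima of 67.3, 19.3 and 33.0 FPKM. Its correlation with detected genes was the highest of the 9 (Spearman 0.56 across 140 cells), the others lying between 0.28 for Cebpb and 0.50 for Cebpa. Cells that held Runx1 had a median of 4846 detected genes and the others 2163.

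Cebpa (ENSMUSG00000034957, chr7:35119293-35121928, plus strand) had its highest level in Low cells. It was found in 15 of 46 PBS (32.6%, 19.5 to 48.0%), 17 of 47 Low (36.2%, 22.7 to 51.5%) and 9 of 47 High cells (19.1%, 9.15 to 33.3%), and among the cells that held it the median FPKM was 8.89, 32.9 and 6.51. On plate 2, 9 of 16 Low cells held Cebpa against 5 of 16 PBS and 3 of 16 High. On plate 1, 3 High cells carried 100% of the group's Cebpa FPKM there. Cebpb (ENSMUSG00000056501, chr2:167688915-167690418, plus strand) was found in 28.3% (16 to 43.5%) of PBS and 17.0% (7.65 to 30.8%) of Low and of High cells. A High cell at 634 FPKM set its mean: the 3 highest High cells gave 95.4% of the summed FPKM, and mean FPKM was 4.85 times that of PBS while the share of cells was lower.

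Bhlhe41 (ENSMUSG00000030256, chr6:145858243-145865558, minus strand) was spread most evenly over the groups, in 43.5% (28.9 to 58.9%) of PBS, 42.6% (28.3 to 57.8%) of Low and 38.3% (24.5 to 53.6%) of High cells. Among the cells that held it the median FPKM was 3.22 in PBS, 8.80 in Low and 12.3 in High. Exons of 5 of the genes overlap a gene on the opposite strand: 302 bases of Lysmd4 for Mef2a, 106 of Gm26626 for Runx1, 51 of Gm45091 for Cebpa, 312 of Tmem189 for Cebpb and 1280 of Gm43909 for Bhlhe41. Whether reads were counted by strand is not given in the sources used here, and reads from these stretches cannot be told apart. Among positive values, 73.8 to 82.3% were whole reads for those 5 genes and 91.8 to 100% for Spi1, Irf8, Mef2c and Sall1.

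Differences between groups were taken as the difference of mean log2(FPKM + 1) over cells, and set beside the same value over 4806 genes found in at least 25% of the cells of any group. All 9 factors passed that filter, Cebpb only through PBS. The doses share the PBS cells, so their differences from PBS are not independent. A gene was counted as shifted where the difference was at least 1 in size with the same sign on each plate. A gene with a mean below 1 in the second group could not be shifted lower. This held for Cebpb against PBS (0.80), and for Sall1 (0.99), Runx1 (0.87) and Cebpb (0.67) against Low.

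In Low minus PBS, Spi1 differed most, with a mean log2 level of 4.4 against 5.61 and a difference of -1.21. Plate by plate this was -1.82, -2.14 and 0.46 on plates 1, 2 and 3, so the sign was not shared. Irf8 differed by -0.75 (0.25, -0.36 and -2.22 by plate), almost wholly through plate 3, since without it the difference was -0.06. Cebpa was 0.57 higher with the same sign on each plate (0.23, 1.40 and 0.05), and Mef2a differed by 0.09 with plates at 0.07, -1.64 and 1.83. Of the 9 factors 6 were lower, against 64.7% of all genes, and their median difference was -0.19 against -0.18. None was shifted by the size and sign rule, against 4.93% of genes shifted lower and 0.52% shifted higher.

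In High minus PBS, Spi1 differed by -1.55 (4.06 against 5.61), with -1.51, -2.43 and -0.54 on the 3 plates. Irf8 differed by -1.29 (3.28 against 4.57), with -0.58, -0.57 and -2.80, and by -0.57 without plate 3. Both were shifted lower by the rule, 2 of 9 factors against 13.4% of all genes; none was shifted higher, against 0.0624%. Spi1 stood at the 2.7th and Irf8 at the 6.37th percentile of the differences of all genes. Those genes were not matched to Spi1 and Irf8 on level, and genes with a low mean in PBS had less room to fall. Without rod-marker cells the differences were -1.28 for Spi1 and -0.94 for Irf8, and without neutrophil- or monocyte-marker cells -1.53 and -1.16, so that Irf8 no longer reached a size of 1 in the former. As the log2 ratio of mean FPKM neither reached it, with Spi1 at -0.73 and Irf8 at -0.66. On that scale the plates disagreed, since mean Spi1 FPKM on plate 3 was 1.43 times and mean Irf8 FPKM on plate 2 was 1.01 times that of PBS. In cells with at least 2000 detected genes Spi1 was at -1.10 and Irf8 at -0.69. Mef2a followed at -0.88 (-0.29, -1.42 and -0.91) and Mef2c at -0.56 (-0.51, -0.53 and -0.67), with the same sign on each plate, and Mef2c was at -1.12 without rod-marker cells. Bhlhe41 alone was higher over all plates, by 0.22, but was at -0.53 on plate 3 and at -0.03 without rod-marker cells. Thus 8 of 9 factors were lower, against 81.4% of all genes, with a median of -0.48 against -0.43. In cells with at least 2000 detected genes, 8 of 9 were lower against 61.2% of all genes, with a median of -0.56 against -0.16. When the number of detected genes in each cell was fitted together with group and plate, Spi1 was at -0.91, Irf8 at -0.63, Mef2a at -0.42 and Mef2c at -0.02, and the median of all genes at -0.05.

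High minus Low compared the doses, which also differed in age. Cebpa was shifted lower, by -1.06 (0.74 against 1.8), carried by plates 2 (-2.22) and 3 (-0.86) with -0.02 on plate 1, and by -0.45 without plate 2. The size of 1 was not reached with detected genes fitted (-0.85) or after thinning to 300000 reads (-0.98). Where 2000 genes or more were detected the difference was -2.04. It was at -1.11 without rod-marker cells and at -1.04 without neutrophil- or monocyte-marker cells. This was 1 of 9 factors, against 5.66% of all genes, and none was shifted higher, against 0.479%. Mef2a differed by -0.97, of which plate 3 gave -2.74 and plate 2 0.22, and by -0.06 without plate 3. Irf8 (-0.54) and Runx1 (-0.29) were lower on each plate. Spi1 was close between the doses, at -0.34 (0.30, -0.29 and -1.0). Of the 9 factors 7 were lower, against 72% of all genes, with a median of -0.29 against -0.24.

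**Figure D3:**
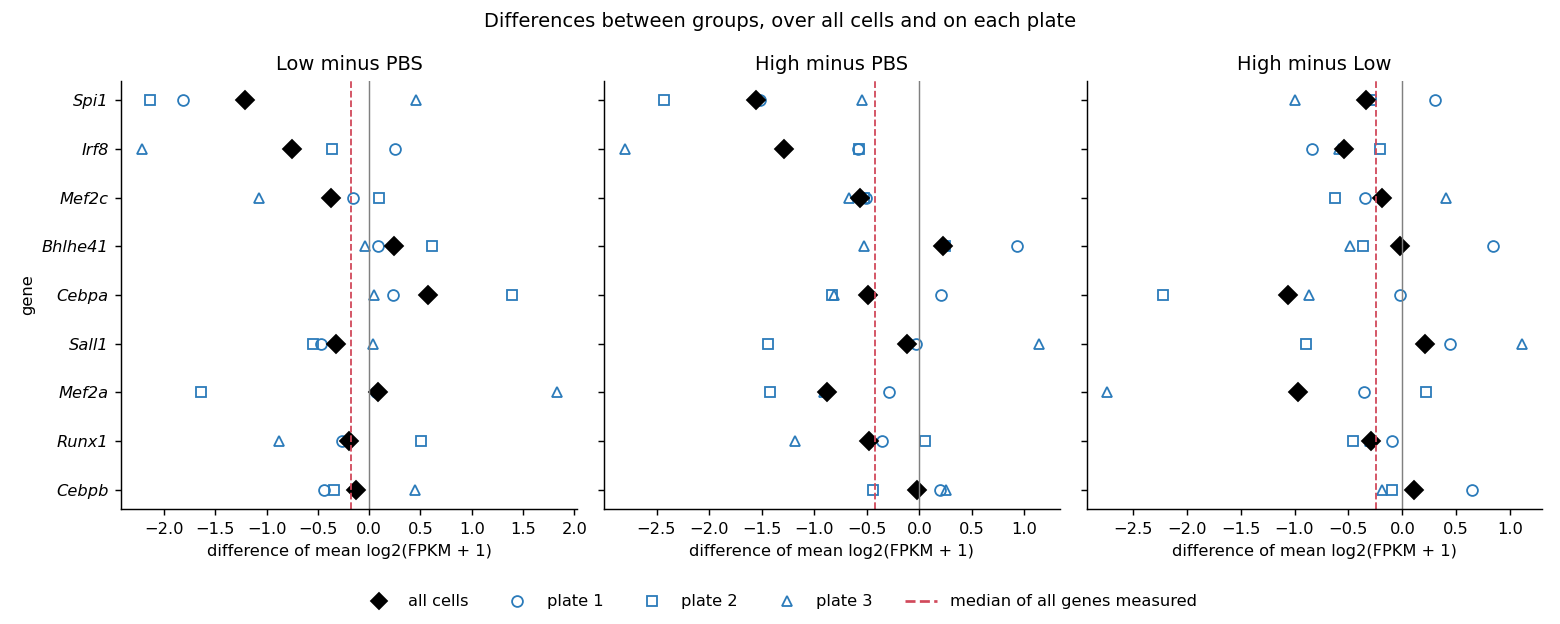
Difference of mean log2(FPKM + 1) for each factor in the 3 comparisons, over all cells (black diamonds) and on plates 1 (circles), 2 (squares) and 3 (triangles), with the median of 4806 genes as a dashed line. Spi1, Irf8, Mef2a and Mef2c in High minus PBS have every symbol left of 0, and the other genes of that panel have plates on both sides.

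Between 0 and 9 of the factors were found in a cell, with a mean of 4.24 ± 2.42 (SD) in PBS, 3.51 ± 2.72 in Low and 3.0 ± 2.09 in High. The means on plates 1, 2 and 3 were 4.12, 4.75 and 3.79 in PBS, 2.93, 4.25 and 3.31 in Low, and 3.20, 3.38 and 2.44 in High, so High lay below PBS on each plate. At least 5 factors were found in 19 of 46 PBS, 19 of 47 Low and 8 of 47 High cells. None of the 9 was found in 1 PBS, 7 Low and 4 High cells, and all 9 in 1 Low and 1 High cell. Cells without any factor had a median of 1544 detected genes and cells with 7 had 5842. Restricting to the 92 cells with at least 2000 detected genes, the mean was 4.71 in PBS, 5.21 in Low and 3.77 in High, so Low was then above PBS and High remained lowest.

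**Figure D4:**
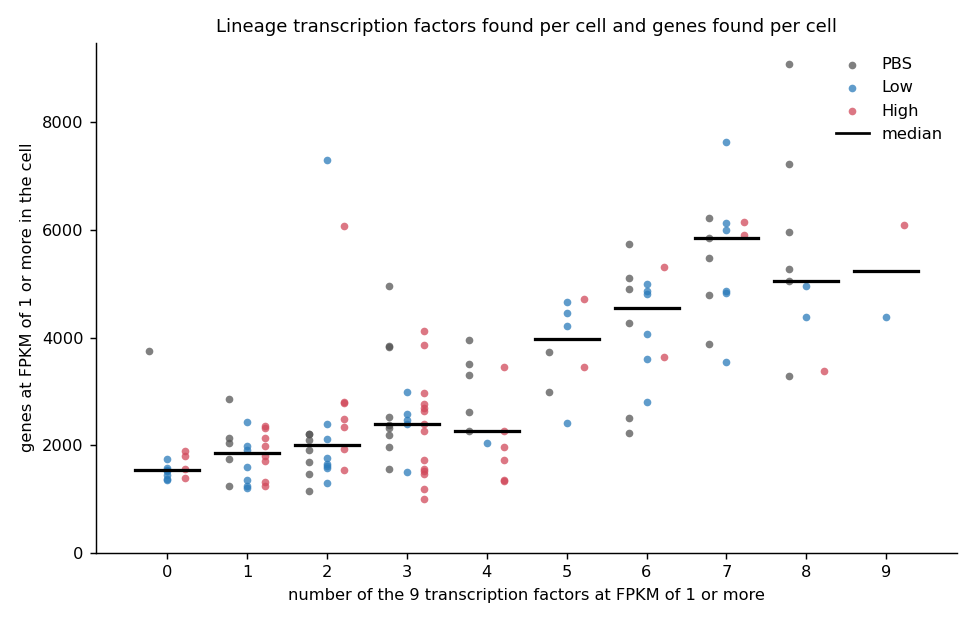
Genes found per cell (vertical axis) against the number of the 9 factors found (horizontal axis), each point a cell coloured by group, with black bars at the median. The medians are 1544 to 2392 genes for 0 to 4 factors and 3975 or more from 5 factors on.

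Spi1 and Irf8 were found together in 84 of 140 cells and both were missing in 23. The product of their single shares gives 72.0 cells with both. It does not allow for detected genes, with which Spi1 and Irf8 correlated at 0.31 and 0.32 (Spearman). Spi1 was found in 84 of 96 cells with Irf8 and in 21 of 44 without. Among cells with at least 2000 detected genes this was 71 of 75 against 11 of 17. Cells with neither were 2 of 46 in PBS (4.35%, 0.531 to 14.8%), 10 of 47 in Low (21.3%, 10.7 to 35.7%) and 11 of 47 in High (23.4%, 12.3 to 38.0%). By plate they were 0, 0 and 2 in PBS, 3, 3 and 4 in Low, and 2, 3 and 6 in High. The 23 cells with neither factor held a median of 11 of the 12 microglial markers (8 to 12), against 12 (9 to 12) in cells with both factors. Their median reads were 1375345 against 1674902, and their median detected genes 1800 against 3688.

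Co-expression across cells was measured as the Spearman correlation of log2(FPKM + 1) after the mean of each group and plate and the number of detected genes had been taken out. The cells share plates, library preparation and depth, and the values describe these 140 cells only. Over the 36 pairs of factors the median was 0.128 and 34 pairs were positive. Over all pairs of 3716 genes found in at least 25% of the cells it was 0.051, with 69.3% of pairs positive. The central 95% of those pairs lay between -0.144 and 0.265. With the 2280 annotated genes among them, single factors gave medians of 0.043 (Cebpb) to 0.104 (Mef2c), with 66.6 to 84.5% positive. Without the adjustment the median over the 36 pairs was 0.227, and with Pearson correlation of the same residuals 0.097.

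Mef2c stood in 3 of the 4 highest pairs. It correlated with Cebpa at 0.347 (Pearson 0.295), with Irf8 at 0.278 (0.256) and with Bhlhe41 at 0.258 (0.282), while Runx1 and Cebpb gave 0.269 (0.210). Mef2c was found in 36 of 41 cells that held Cebpa and in 28 of 99 that did not. Among cells with at least 2000 detected genes this was 35 of 39 against 21 of 53. Likewise 25 of 28 such cells with Sall1 held Mef2c, against 31 of 64 without. The Mef2c and Cebpa value was 0.33 in PBS, 0.59 in Low and 0.08 in High cells. Mef2c and Irf8 gave 0.42, 0.34 and 0.10. The lowest pairs were Runx1 with Sall1 (-0.025) and Cebpb with Bhlhe41 (-0.002). Spi1 gave 0.212 with Irf8 and at most 0.143 with the other 7, and weak values in data this sparse are not a finding.

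**Figure D5:**
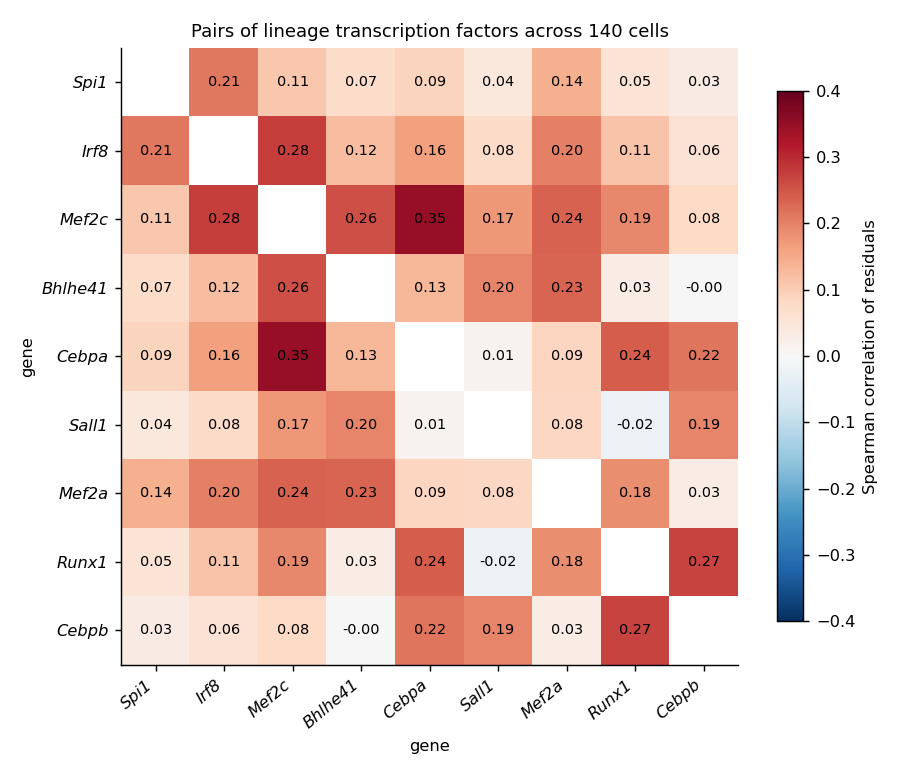
Spearman correlation across 140 cells for each pair of factors after group, plate and detected genes were taken out, red for positive and blue for negative. Mef2c with Cebpa is highest at 0.35 and Runx1 with Sall1 lowest at -0.02.

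By the same measure, the genes most like each factor were sought among 2280 annotated genes found in at least 25% of the cells, for the 7 factors found that often. For Spi1 they were Vamp8 (0.37), a SNARE of endosomes, Cox8a (0.32), a cytochrome c oxidase subunit, and Ube2d2a (0.32), a ubiquitin-conjugating enzyme. For Irf8 they were Zfp652 (0.45), Tmem59 (0.44) and Rab3il1 (0.44). Mef2a was nearest to Blnk (0.41), an adaptor of immune receptor signalling, Tmbim1 (0.39) and Il10ra (0.38), the IL-10 receptor. Mef2c was nearest to Rsl1d1 (0.42), Ociad1 (0.39) and Inpp5d (0.39), which encodes the phosphatase SHIP1. Runx1 was nearest to Adap2os (0.51) and Adap2 (0.50), an antisense pair whose reads may not be separable, and to Tnfrsf1b (0.47), a TNF receptor. Cebpa was nearest to Sptlc2 (0.46), a subunit of the enzyme that begins sphingolipid synthesis, and to Rnu3b4 (0.46) and Rnu3b3 (0.45), near-identical copies of a small nucleolar RNA that are uncertain. Bhlhe41 was nearest to Plbd2 (0.45), Usp2 (0.39) and Golm1 (0.37). None of these 7 factors was among the top 3 of another. Sall1 and Cebpb, found in 23.6% and 20.7% of cells, were not candidates. These values are the highest of many, and the within-group values ranged widely: 0.70, 0.43 and 0.44 for Runx1 with Adap2os in PBS, Low and High, but 0.08, 0.49 and 0.19 for Spi1 with Ube2d2a.

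Other genes of the same circuits were read from lists. Of 38 other macrophage and microglial transcription factors, 18 were found often enough to compare. Their median difference was -0.42 in Low minus PBS (12 lower) and -0.56 in High minus PBS (16 lower). Over all genes the medians were -0.18 and -0.43, with 64.7% and 81.4% lower. As the log2 ratio of mean FPKM the list medians were 0.48 and -0.05, against 0.06 and -0.05. Of the 18, 5 passed the filter on found cells only through PBS, among them Irf1 and Stat6, so that a lower value elsewhere was in part fixed by the filter. Irf9, a mediator of interferon signalling, passed only through Low and was 0.62 higher there, while Irf1 (-0.58) and Zeb2 (-0.50) were lower. In High, Irf1 (-1.40) and Stat6 (-1.13) were past the size and sign rule, 2 of 18 against 13.4% of all genes, and Fli1 was at -0.90. With detected genes fitted these were at -0.85, -0.70 and -0.48. Of 22 partners and regulators, 8 were compared, with medians of -0.27 and -0.44 against -0.18 and -0.43 over all genes. Lower were 6 and 7, against 64.7% and 81.4% of all genes. None was shifted, against 4.93% and 13.4% of all genes shifted lower. Tgfbr1, the receptor chain through which TGF-β sustains microglial identity, was 0.67 higher in Low (-0.18, 1.93 and 0.22 by plate) and 0.92 lower in High (-0.98, -0.95 and -0.83), but at -0.06 in High with detected genes fitted. Csf1r, the receptor that keeps microglia alive, was found in 100% of PBS and of Low cells and differed by -0.56 in Low with plates at -1.56, 1.13 and -1.43, whereas in High it was 0.46 higher. Tgfbr2 differed by -0.36 in Low. In High, Mapk14 differed by -0.93 and Trib1, which directs degradation of C/EBPα and passed the filter only through PBS, by -0.71. With detected genes fitted they were at -0.38 and -0.42.

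Of 22 genes known to depend on PU.1 or IRF8, 21 were compared. In Low 13 and in High 14 were lower, with medians of -0.29 and -0.19, and 3 and 2 were shifted lower. Over all genes 64.7% and 81.4% were lower, with medians of -0.18 and -0.43, and 4.93% and 13.4% were shifted lower, so that in High the list had smaller shares than the genes at large. In Low these were Coro1a (-1.44), Cd74 (-1.33) and Fcgr1 (-1.16), and in High Ptprc (-1.54) and Cd33 (-1.21), with Coro1a at -0.94. Cd33 passed the filter only through PBS. As the log2 ratio of mean FPKM, Cd74 was 0.95 higher in Low. With detected genes fitted, Cd74 was at -1.06 in Low, while Coro1a (-0.97) and Fcgr1 (-0.66) in Low and Ptprc (-0.85) and Cd33 (-0.82) in High did not reach a size of 1. With that fit the list median in High was 0.36 against -0.05 for all genes, and as the log2 ratio of mean FPKM it was 0.27. Across cells, Spi1 correlated with 20 of these genes at a median of 0.055 against 0.054 for all genes, and Irf8 at 0.117 against 0.091.

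Genes known to depend on SALL1 or MEF2C, the homeostatic set of microglia, had 16 members, all compared. Their median was -0.02 in Low, with 9 lower, and -0.61 in High, with 15 lower, against -0.18 and -0.43 over all genes with 64.7% and 81.4% lower. Fcrls, an Fc receptor-like gene used as a microglial marker, was shifted lower in both (-1.31 and -1.09), 1 of 16 against 4.93% and 13.4% of all genes. With detected genes fitted it was at -0.61 in Low and 0.07 in High, and in High it was at -0.52 without rod-marker cells. In Low, Sparc (-0.99, but 1.06 on plate 2) and Golm1 (-0.83) came next. In High these were P2ry12, the ADP receptor of resting microglia (-1.05, with 0.07 on plate 1), and Csf3r (-0.88). With detected genes fitted, the list medians were 0.45 in Low and 0.23 in High against 0.05 and -0.05 over all genes, and as the log2 ratio of mean FPKM 0.15 and 0.01. Across cells Mef2c correlated with the 16 genes at a median of 0.238 against 0.104 over all genes. Sall1 gave 0.192 against 0.074, Irf8 0.173 against 0.091 and Bhlhe41 0.168 against 0.065. For each of these factors 15 of 16 were positive. Over all genes this share was 84.5% for Mef2c, 77.8% for Sall1, 81.2% for Irf8 and 73.8% for Bhlhe41. Mef2a gave 0.116 against 0.079, with 16 of 16 positive against 78.2%. Cebpa gave 0.116 against 0.078, with 15 of 16 against 79.5%. Spi1 gave 0.034 against 0.054, Runx1 0.031 against 0.096 and Cebpb 0.018 against 0.043.

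Of 18 genes known to depend on C/EBP factors, 8 were compared, with medians of -0.40 in Low and -1.10 in High and 7 lower in each, against -0.18 and -0.43 over all genes with 64.7% and 81.4% lower. In Low, Ccl2, a monocyte chemokine, differed by -2.44 (-2.44, -1.51 and -3.45 by plate), Lyz2 (lysozyme) by -1.72 and Tnf by -0.97. In High, Csf2ra, a chain of the GM-CSF receptor, differed by -2.08 (-2.16, -1.89 and -2.11), Ccl2 by -1.71 and Tnf by -1.39, and 5 of the 8 were shifted lower against 13.4% of all genes. In Low 2 of the 8 were, against 4.93%. The other 2 in High were Lyz2 (-1.14), at -0.40 without neutrophil- or monocyte-marker cells, and Socs3 (-1.07), a feedback inhibitor of cytokine signalling, at -0.93 without rod-marker cells. Cebpa and Cebpb themselves were not shifted in High minus PBS, at -0.48 and -0.02. Their PBS means were 1.22 and 0.80. Cebpb therefore could not be shifted lower, and Cebpa only with almost no signal left, so the call says little about either. With detected genes fitted, the list medians were 0.04 and -0.03, and in High Tnf was at -0.02, Ccl2 at -0.81, Lyz2 at -0.56, Socs3 at 0.08 and Csf2ra at -1.37. Apart from Fcrls, Lyz2 and Socs3 in High, each shifted gene named from the lists stayed at a size of 1 or more both without rod-marker cells and without neutrophil- or monocyte-marker cells. Across cells, the median correlation of Cebpa with 7 of these genes was 0.065 against 0.078 over all genes, and that of Cebpb 0.119 against 0.043. Irf8 (0.188 against 0.091), Mef2c (0.161 against 0.104) and Mef2a (0.137 against 0.079) gave higher medians with the same 7. Spi1, Runx1, Sall1 and Bhlhe41 lay at 0.061 to 0.104.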

How the data were processed

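Single cells were sorted, lysed and amplified in the same tube and made into Nextera XT libraries, per the labels' protocols, with no molecular identifiers named. The authors deposited FPKM values for 55364 genes in 144 cells. Per the submitters' processing notes, the tools included STAR 2.7.2b and featureCounts 1.6.1, with Trimmomatic 0.36, Trim Galore 0.4.4 and cutadapt 1.16, on GRCm38.p6 (mm10). Settings and order are not given in the sources used here. FPKM times gene length sums to the same constant in each cell, and its most frequent positive value was taken as 1 read. A median of 53.1% of positive values (38.0 to 70.6% over cells) were whole reads within 0.01, with others at fractions, so no count model was used.

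Levels were log2(FPKM + 1), with the shift rule a difference of 1 and the same sign on 3 plates. The fit for detected genes was linear on group, plate and log10 of detected genes. Thinning used random draws with a fixed seed, and reads were rounded first. Cells correlated with each other at 0.746 at most, so none was taken for a repeat. Many values are 0, and residuals of 0 values share the fitted terms, which can raise a rank correlation. Pearson values therefore stand beside the highest pairs, and Pearson and unadjusted values beside the median over pairs. The correlations with nearest genes and with lists are given without them. The difference, the shift rule and the correlation of residuals were tested on simulated data. The simulated correlations held no excess of 0 values, and no group difference in detected genes was built into the simulated counts.

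The 9 genes, the 5 lists and the markers were chosen with earlier results of these data known. Named genes were the 9, the 3 nearest to each by correlation (factors in at least 25% of cells), and the 3 per list with the largest difference from PBS at each dose. Lists share members: Csf3r and Cst3 stand on more than 1 list, as does Csf1r. The values of shifted list genes without rod-marker or neutrophil- or monocyte-marker cells were chosen after seeing the data. Alternatives changed the scale, the pseudocount, the cells, the adjustment, the plates, the detection threshold and the size rule. Calculations ran under Python 3.11.15 (scipy 1.17.1, numpy 2.4.6, pandas 2.3.3, matplotlib 3.10.9).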

Additional observations from a re-analysis of the deposited data

How the results depend on the processing

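Without replicates, these data show how cells differed and not whether animals did, and low read numbers limit the 6 lower genes most. The median difference of the 9 factors in Low minus PBS (-0.19) became 0.33 where 2000 or more genes were detected per cell, -0.43 as log2 ratio of mean FPKM and -0.39 with a pseudocount of 0.1, against 0.07, 0.06 and -0.34 over all genes. In High minus PBS (-0.48) it became 0.032 as log2 ratio of mean FPKM, -0.96 with a pseudocount of 0.1 and -0.015 with detected genes fitted, against -0.05, -0.74 and -0.05 over all genes. In High minus Low (-0.29) it became 0.084 as log2 ratio of mean FPKM and -0.58 where 2000 or more genes were detected, against -0.11 and -0.22. Leaving out each plate in turn gave medians of -0.21 to -0.06, -0.59 to -0.52 and -0.40 to -0.20 in the 3 comparisons.

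The mean number of factors per cell in Low minus PBS (-0.73) was -0.30 for any FPKM above 0, -0.12 at an FPKM of 10 and 0.50 where 2000 or more genes were detected. In High minus PBS (-1.24) these were -0.88, -0.82 and -0.94, with -0.86 after thinning to 300000 reads. The median pair correlation (0.128) was 0.227 without adjustment and 0.089 in Low cells. At a size of 0.5, 1 factor was shifted in Low minus PBS (Cebpa, higher, against 3.87% of all genes), 4 lower in High minus PBS (Spi1, Irf8, Mef2a, Mef2c, against 32.7%) and 2 lower in High minus Low (Irf8, Cebpa, against 18.6%). Of the alternatives for these summary values, 45 of 65 stayed within the spread over plates (for counts, within 1.5 times), 16 moved further and 4 reversed in sign. Of those for single genes and their counts, 455 of 504 stayed and 49 moved further. No paired analysis was possible because each group was 1 sample of cells and a well number names no animal.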
